A study of Mus musculus with 44 samples.

Results

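Creb1, Crebbp, Crtc1 and Atf4 encode the transcription factor CREB, its coactivators CBP and CRTC1, and the related stress factor ATF4. They were chosen by name, and all 4 were among the 8203 rows of the expression matrix, which holds 44 mice. The RNA came from punches centered on the amygdala, labelled as central amygdala, of adult Crh-TRAP mice, the first-generation progeny of a Crh-Cre line and a line whose EGFP-tagged ribosomal protein L10a is made only where Cre is active. RNA bound to GFP-tagged ribosomes was then captured, a method meant to recover RNA from cells in which the Crh promoter has driven Cre. No unselected RNA was analysed here, so the enrichment itself cannot be given. All mice carried both transgenes, and each sample was an individual mouse. The tone alone (TA) group (n = 16, 10 males and 6 females) heard the tones without shock, the fear conditioning (FC) group (n = 12, 6 males and 6 females) received 5 pairings of tone and shock, and the extinction (EXT) group (n = 16, 10 males and 6 females) was conditioned and then given 30 tones without shock on the next day, in a different context. EXT mice were therefore sampled on a later day of the procedure than TA and FC mice. The question put to these 4 genes is whether the ribosome-associated RNA of CREB, its coactivators or ATF4 differed after FC or EXT.

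CREB sits on cAMP response elements (CREs) in promoters and is switched on when protein kinase A, calcium/calmodulin-dependent kinases or kinases downstream of MAP kinase phosphorylate it. Phosphorylated CREB recruits CBP, a histone acetyltransferase, while CRTC1 is held in the cytoplasm until calcineurin dephosphorylates it and lets it enter the nucleus, where it joins CREB at CREs. In neurons this pathway turns on genes of activity and plasticity, such as Fos and Arc, and is long known for its part in memory, including amygdala-dependent fear memory. ATF4 is a bZIP factor of the same superfamily whose protein is made mainly when eIF2alpha is phosphorylated, and it turns on genes for amino acid transport, amino acid synthesis and tRNA charging. Because the activity of CREB and CRTC1 is set by phosphorylation and that of ATF4 by translation, an RNA level is not a measure of the activity of any of them. RNA recovered from tagged ribosomes reflects both the amount of RNA and its loading on ribosomes.

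CREs can be read in the promoters themselves. Windows from 250 bases before to 50 bases after the start of transcription were taken from RefSeq on GRCm38.p6, with 1 window for each listed start site, and searched for the CRE TGACGTCA and for its shorter form TGACG, or CGTCA when read on the other strand. The CRE is its own reverse complement and contains both short forms, so a promoter with a CRE also counts as holding them. Over all 27025 genes with a window, 2.03% held a CRE and 23.0% a short form, counting those with a CRE. Among the 6393 of them that were in the matrix these shares were 4.07% and 39.3%. The windows of Creb1, Crebbp and Crtc1 held neither motif. The window of Atf4 held 2 short forms and no CRE, and the one farther upstream is shown first below. Of the 30 measured genes listed as neuronal CREB targets, 22 had a window and 6 of these held a CRE. They are shown with the CRE or short form in capitals, 5′ to 3′ on the strand of the gene, since they are the CRE-bearing genes to which the target counts further down refer.
Atf4, + strand, chr15:80255156-80255183: cagcttcggctttgacCGTCAgagcttt
Sst (somatostatin), - strand, chr16:23890869-23890908: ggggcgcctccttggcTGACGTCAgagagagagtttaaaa
Scg2 (secretogranin II), - strand, chr1:79440071-79440110: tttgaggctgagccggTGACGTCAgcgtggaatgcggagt
Cartpt (CART peptide), - strand, chr13:99900772-99900811: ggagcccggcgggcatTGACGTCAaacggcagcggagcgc
Dusp1 (a MAP kinase phosphatase), - strand, chr17:26508592-26508631: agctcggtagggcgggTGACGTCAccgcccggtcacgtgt
Btg2 (an early response gene), - strand, chr1:134079298-134079337: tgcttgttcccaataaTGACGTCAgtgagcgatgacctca
Syn1 (synapsin I), - strand, chrX:20921054-20921093: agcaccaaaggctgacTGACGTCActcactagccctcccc
The first base of the CRE lay 48 bases before the start in Sst, 68 in Scg2, 112 in Cartpt, 143 in Dusp1, 159 in Syn1 and 166 in Btg2. A motif match is a description of the sequence and not a sign that CREB was bound there.

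The deposited values are log2 CPM, which is a read count scaled to the size of its library, and all 360932 of them gave back a whole number of reads. Effective library sizes ran from 12802113 to 20440351 reads. They differed by group, with medians of 18015590.5 reads in TA, 16977973 in FC and 15412341 in EXT mice. The largest EXT library, of 17805609 reads, was below the TA median. Creb1 rested on 225 to 716 reads per mouse, Crebbp on 303 to 895, Crtc1 on 851 to 3416 and Atf4 on 790 to 2568. Creb1 and Crebbp were thus the least deeply read of the 4 and Crtc1 and Atf4 the most. On GRCm38, Creb1 (ENSMUSG00000025958.14) lies on chromosome 1 from 64532645 to 64604548 on the + strand. Crebbp lies on chromosome 16 from 4081328 to 4213997 and Crtc1 on chromosome 8 from 70382355 to 70439579, both on the - strand, and Atf4 on chromosome 15 from 80255184 to 80257541 on the + strand. The values are counts over whole genes and do not tell isoforms apart. Per kilobase of exon, which allows levels to be compared between genes, Atf4 was the highest of the 4 at 5.32 ± 0.38 log2 CPM per kilobase (SD, n = 44), above 79.5% of the 8023 rows that could be placed. Crtc1 followed at 3.36 ± 0.30, above 45.6% of rows. Crebbp (1.07 ± 0.38) and Creb1 (0.96 ± 0.40) were near the bottom of the matrix, above 6.41% and 5.45% of rows, and did not differ beyond their spread. The lengths are those of all annotated exons, so the order of genes with long untranslated regions depends on the annotation.

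Batch shapes what can be said of these genes. The labels give 5 batches, and do not say what a batch was. Batch 1 held 4 TA, 5 FC and 2 EXT mice, batch 2 held 5 TA, 2 FC and 3 EXT mice, and batch 5 held 7 TA, 5 FC and 5 EXT mice. Batch 3 (5 mice) and batch 4 (1 mouse) held EXT mice only, so that batch and condition cannot be told apart in these 6 mice. Their summed marker levels differed in median from those of TA mice, with ranges that overlapped. The 15 measured markers of GABAergic and Crh neurons summed to a median of 3204 CPM (range 2330 to 4229) in these 6 mice, against 6585 CPM (4026 to 8542) in TA mice. All 8 astrocyte markers summed to 1062 CPM (963 to 1353) against 484 CPM (227 to 1214), and the 7 measured oligodendrocyte markers to 6962 CPM (4158 to 13244) against 3310 CPM (1357 to 6221). The 4 measured choroid plexus markers summed to 1054 CPM (234 to 3196) against 6543 CPM (187 to 27465), and reached 51048 CPM in another EXT mouse, while the 4 measured glutamatergic markers summed to 425 CPM against 282 CPM. Single mice of other batches reached the levels of these 6. EXT mouse 21 of batch 2 had 2849 CPM of GABAergic and Crh neuron markers and 995 CPM of astrocyte markers. FC mouse 13 of batch 5 had 17967 CPM of oligodendrocyte markers. In FC vs. TA, with batch as categories, 8 of 8 astrocyte markers were higher (median 0.48, 5 with a limma unadjusted p under 0.05), as were 7 of 7 oligodendrocyte markers (median 0.37, 0 with such a p), and 4 of 4 choroid markers were lower (median -0.95, 2 with such a p). Of the 15 GABAergic and Crh neuron markers 11 were lower there (median -0.19, 3 with such a p). Of all rows 16.8% had such a p in FC vs. TA, and 0 of these markers were FDR-significant. In EXT vs. TA with categories, 3 of 8 astrocyte and 1 of 7 oligodendrocyte markers were higher. All 4 choroid markers were lower there, and 0 markers of these 3 lists had such a p. The part of these markers in the results was not tested. Among the defining markers, Slc32a1 was not among the rows, and no microglial or endothelial list had more than 1 measured member. Sex is given as labelled, and 3 to 4 of 18 females lay above all males for the X-linked genes Kdm5c, Ddx3x and Eif2s3x, so expression does not check those labels. In such bulk samples, fewer cells of a type and less RNA per cell cannot be told apart.

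Creb1, which encodes CREB itself, did not pass the test in any comparison between the 3 groups. In TA mice its log2 CPM ran from 4.21 to 5.15 with a median of 4.76, in FC mice from 3.63 to 5.00 with a median of 4.83, and in EXT mice from 4.18 to 5.48 with a median of 4.85. The groups overlapped, with 3 of 12 FC mice below all TA mice and 4 of 16 EXT mice above all TA mice. All 3 low FC mice were of batch 1, and all 4 high EXT mice were of batches 3 and 4. With batch as categories, EXT and TA mice are compared only inside batches 1, 2 and 5, while the mice of batch 3 still enter the sex term and the residual variance. So coded, the EXT vs. TA difference of Creb1 was -0.10 on the log2 scale (95% interval -0.29 to 0.08, standard error 0.09, limma FDR-adjusted p 0.519). With batch entered as a number, which lets batches 3 and 4 weigh in, it was 0.14 (standard error 0.12, limma adjusted p 0.41), so its direction depends on how batch is coded. With the 6 mice of batches 3 and 4 left out, an alternative chosen after seeing the data, the numeric coding gave -0.09. The Creb1 FC vs. TA difference was -0.07 (-0.26 to 0.12, limma adjusted p 0.721). EXT vs. FC was -0.05 (-0.30 to 0.21, limma adjusted p 0.986) with categories and 0.27 (-0.04 to 0.58, limma adjusted p 0.317) with batch as a number, so that this direction depends on the coding too.

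**Figure D1:**
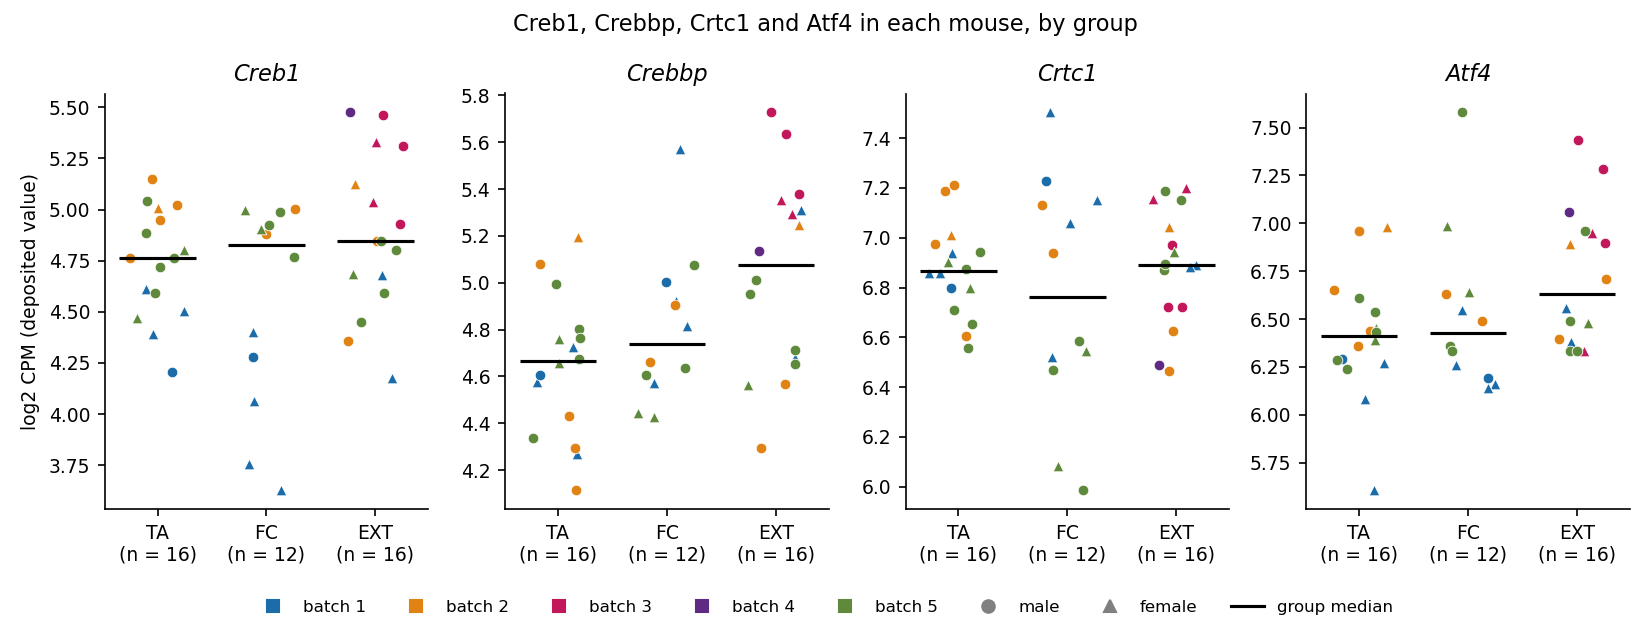
Each point is a mouse, plotted by its deposited log2 CPM (vertical axis) in the TA, FC and EXT groups, with color for batch, circles for males, triangles for females and a bar at the group median. The groups overlap for all 4 genes. The EXT mice of batches 3 and 4 are among the highest for Creb1 (4.93 to 5.48) and Crebbp (5.14 to 5.73), and lie inside the range of the other mice for Crtc1.

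Crebbp, the gene of the acetyltransferase CBP, had the largest EXT vs. TA difference of the 4, and whether it passed depended on batches 3 and 4. Its log2 CPM ran from 4.11 to 5.19 in TA mice (median 4.67), from 4.43 to 5.57 in FC mice (median 4.74) and from 4.29 to 5.73 in EXT mice (median 5.07). The ranges overlapped, although 12 of 16 EXT mice lay above the TA median and 7 above all TA mice. With batch as categories the EXT vs. TA difference was 0.15 (-0.10 to 0.40, standard error 0.12, limma adjusted p 0.491). With batch as a number it was 0.39 (0.12 to 0.65, standard error 0.13), which was FDR-significant in limma (adjusted p 0.0339), as were 21.4% of all rows under that coding. The 5 EXT mice of batch 3 were at 5.29, 5.35, 5.38, 5.63 and 5.73 and the mouse of batch 4 at 5.14, against a median of 4.70 (4.29 to 5.31, n = 10) in EXT mice of the other batches. Without these 6 mice the numeric coding gave 0.14 for Crebbp, close to the value with categories. The EXT minus TA difference of the means was 0.45 in batch 1, 0.08 in batch 2 and 0.07 in batch 5. The FC vs. TA difference of Crebbp was 0.15 (-0.10 to 0.40, limma adjusted p 0.551), and EXT vs. FC was 0.06 (-0.21 to 0.33, limma adjusted p 0.982).

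Crtc1, the calcium-responsive coactivator and the most abundant of the 3 genes of the CREB complex, had nearly the same median in TA and EXT mice. Its log2 CPM ran from 6.56 to 7.21 in TA mice (median 6.87), from 5.99 to 7.50 in FC mice (median 6.76) and from 6.46 to 7.20 in EXT mice (median 6.89). FC mice had the widest spread, with an SD of 0.47 against 0.18 in TA and 0.23 in EXT mice, and reached beyond both other groups at either end. The EXT vs. TA difference of Crtc1 was 0.02 (-0.16 to 0.20, limma adjusted p 0.919) with batch as categories and 0.02 (-0.15 to 0.18) with batch as a number. The FC vs. TA difference was -0.11 (-0.33 to 0.11, limma adjusted p 0.615), and EXT vs. FC was 0.20 (-0.11 to 0.50, limma unadjusted p 0.196), neither of which passed. The EXT vs. TA interval of Crtc1 was the narrowest of the 4 genes. Its sign turned when TA mouse 37, EXT mouse 58 or EXT mouse 60 was left out (lowest value -0.019).

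Atf4, which answers to eIF2alpha phosphorylation rather than to CREB kinases, did not pass the test in either trained group with batch as categories. Its log2 CPM ran from 5.61 to 6.98 in TA mice (median 6.41), from 6.14 to 7.58 in FC mice (median 6.42) and from 6.33 to 7.44 in EXT mice (median 6.63). The ranges overlapped, and 11 of 16 EXT mice and 6 of 12 FC mice lay above the TA median. With batch as categories, EXT vs. TA was 0.14 (-0.10 to 0.37, standard error 0.11, limma adjusted p 0.501) and FC vs. TA was 0.20 (-0.04 to 0.43, standard error 0.11, limma adjusted p 0.377). With batch as a number, EXT vs. TA was 0.31 (0.06 to 0.55, limma unadjusted p 0.0147, adjusted p 0.0603). As with Crebbp, the EXT mice of batches 3 and 4 were high, at 6.99 ± 0.38 (SD, n = 6) against 6.55 ± 0.23 (SD, n = 10) in the other EXT mice, and without them the numeric coding gave 0.14. EXT vs. FC was -0.04 with categories (-0.35 to 0.27, limma adjusted p 0.99) and 0.16 with batch as a number (-0.14 to 0.45). The TA mice enter both the EXT and the FC comparison, which are therefore not independent.

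In all, 0 of the 4 genes were FDR-significant in limma in EXT vs. TA with batch as categories, where 0.0244% of all rows were (2 of 8203, both lower after EXT). Counting rows with an unadjusted p below 0.05 gave 0 of the 4, against 21.1% of all rows (10.2% higher and 11% lower). In FC vs. TA there were 0 of the 4 at either threshold, against 0% and 16.8% of rows, and in EXT vs. FC 0 of the 4, against 0% and 4.19%. With batch as a number, 1 of the 4 (Crebbp) was FDR-significant in EXT vs. TA and 2 (Crebbp and Atf4) had an unadjusted p under 0.05, against 21.4% and 37.8% of rows. A p above the threshold does not show that the groups were alike, and the intervals given above bound the differences.

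**Figure D2:**
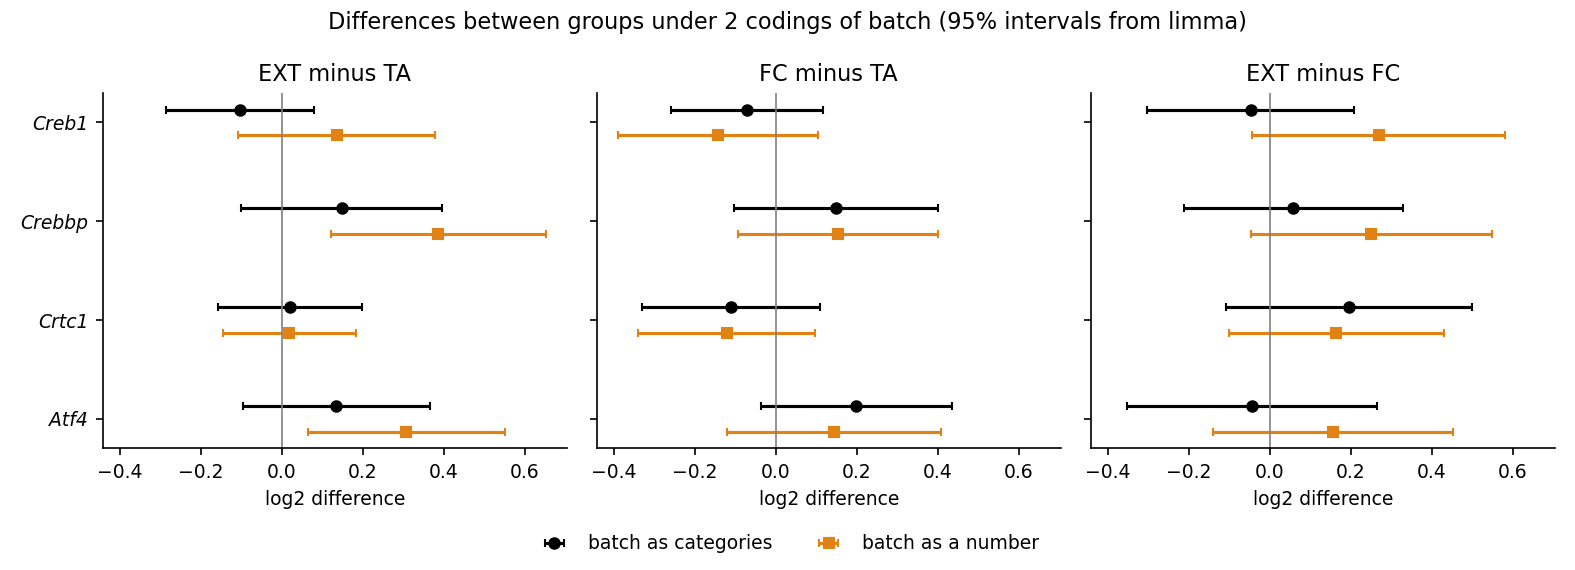
Points are log2 differences between groups (horizontal axis) for each of the 4 genes from limma, with 95% intervals, in black for batch as categories and in orange for batch as a number. With categories all 12 intervals include 0. With batch as a number those of Crebbp (0.12 to 0.65) and Atf4 (0.06 to 0.55) in EXT minus TA do not.

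Separate fits for the sexes, with batch as categories, gave 0 FDR-significant members in limma. Of all rows, 0.0122% were FDR-significant in EXT vs. TA in males, 0.0244% in EXT vs. FC in males, and 0% in the other comparisons. In females, FC vs. TA was 0.33 for Atf4 (0.02 to 0.64, limma unadjusted p 0.0384, adjusted p 0.317), and in males it was 0.14 (limma adjusted p 0.733). Atf4 there was the only one of the 4 with an unadjusted p under 0.05 in these 6 fits, where such rows made up 14.8% in females and 13.1% in males for FC vs. TA, 13.8% and 12.5% for EXT vs. TA, and 1.43% and 8.79% for EXT vs. FC. The test of the difference between the sexes gave -0.10 for Atf4 in males minus females (limma unadjusted p 0.67). The largest sex difference was that of Creb1 in EXT vs. FC, at -0.26 in males and 0.22 in females, with an interaction of -0.39 (-0.84 to 0.05, limma unadjusted p 0.0815, adjusted p 0.999). Sex and batch were partly confounded there, as batch 1 held no EXT male and batch 2 no FC female. The EXT minus FC difference of the Creb1 means was 0.40 in batch 1, -0.17 in batch 2 and -0.24 in batch 5. The part of batch in this sex difference was not tested. Of 12 such interactions over the 4 genes and 3 comparisons, 0 had an unadjusted p under 0.05 in limma, against 6.02% of rows for EXT vs. TA, 9.62% for FC vs. TA and 4.16% for EXT vs. FC.

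The level of Creb1 followed batch more closely than it followed the behavioral groups, and so did the medians over all rows. Batch accounted for 67.4% of the variance of Creb1 over the 44 mice, a share above that of 86.9% of rows, against 41.8% for Crebbp, 39.6% for Atf4, 18.0% for Crtc1 and a median of 41.5% over all rows. Group accounted for 10.9% of the variance of Creb1 and sex for 10.4%, against medians of 7.93% and 3.86% over all rows. The labels were partly confounded, and batch has more levels than group or sex. In batch 1 Creb1 ran from 3.63 to 4.68 (mean 4.25 ± 0.33, SD, n = 11), and in batch 2 from 4.36 to 5.15 (4.91 ± 0.23, n = 10). Batch 5 lay between 4.45 and 5.04 (4.78 ± 0.18, n = 17), so that batch 1 was low and overlapped the others only in part. A fit on the 38 mice of batches 1, 2 and 5 with group and sex, chosen after seeing the data, put Creb1 0.69 higher in batch 2 (0.43 to 0.94) and 0.56 higher in batch 5 (0.33 to 0.78) than in batch 1, with a limma FDR-adjusted p of 3.57e-05 for any batch difference. Such a difference was FDR-significant for 55.3% of all rows, among them Atf4 (limma adjusted p 0.00633), which was 0.52 higher in batch 2 and 0.40 higher in batch 5 than in batch 1. It was not for Crtc1 (limma adjusted p 0.0912) or Crebbp (limma adjusted p 0.846). The GABAergic and Crh neuron markers summed to a median of 7168 CPM in batch 1, 4565 CPM in batch 2 and 6289 CPM in batch 5, and their part in the level of Creb1 was not tested. The sex term of the same fit was between -0.10 and 0.03 for the 4 genes, with a lowest limma unadjusted p of 0.373, where 5.25% of rows had a p under 0.05.

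**Figure D3:**
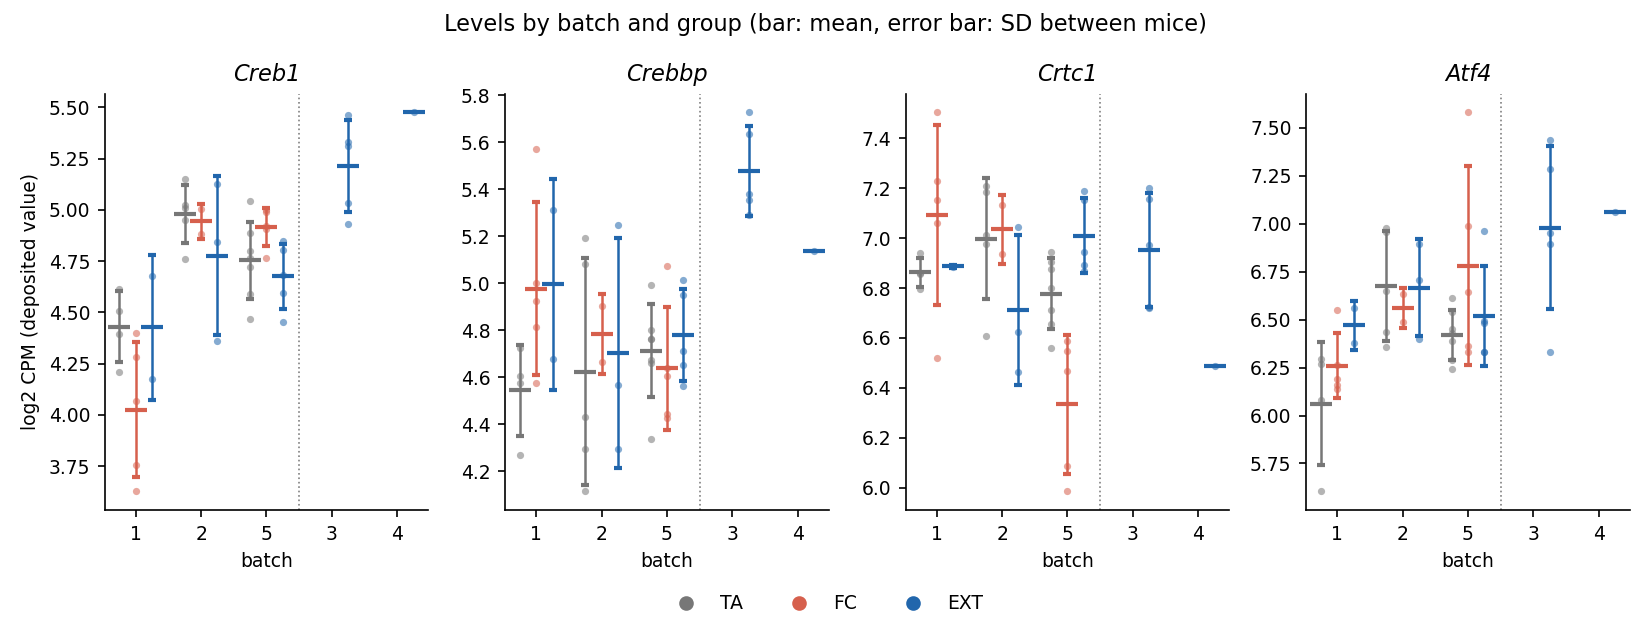
Points are mice, plotted by log2 CPM (vertical axis) within each batch (horizontal axis) and colored by group, with the mean as a bar and the SD as an error bar. Right of the dotted line are batches 3 and 4, which held EXT mice only. Creb1 was low in batch 1 (mean 4.25), and Crtc1 in batch 5 was lower in FC mice (mean 6.33) than in EXT mice (mean 7.01).

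Within batches the members did not keep a single direction. Creb1 in FC mice of batch 1 was at 3.63, 3.75, 4.07, 4.28 and 4.40, and in TA mice of that batch at 4.21, 4.39, 4.50 and 4.61. In batch 5 all 5 FC mice (4.77 to 5.00) lay above the TA median of 4.76. FC minus TA was thus -0.40 in batch 1, -0.04 in batch 2 and 0.16 in batch 5, and the test of a difference between batches gave a limma unadjusted p of 0.0183 (adjusted p 0.646), where 7.13% of rows had a p under 0.05. Crtc1 turned in the opposite sense. Its FC values in batch 5 were 5.99, 6.09, 6.47, 6.55 and 6.59, below all of the EXT values of that batch (6.87, 6.89, 6.94, 7.15 and 7.19), while 0.841% of rows had all 5 EXT mice above all 5 FC mice there. In batch 1 the FC values of Crtc1 reached 7.50 and 4 of 5 lay above all TA mice of that batch. FC minus TA for Crtc1 was 0.23 in batch 1, 0.04 in batch 2 and -0.44 in batch 5, and EXT minus FC was -0.21, -0.32 and 0.68. The tests of a difference between batches gave Crtc1 limma unadjusted p values of 0.0117 in FC vs. TA and 0.00483 in EXT vs. FC (7.72% of rows under 0.05), and 0.0182 in EXT vs. TA (21.6% of rows), none of which was FDR-significant (lowest adjusted p 0.145), as were 1.35% of rows in the last of these and 0% in the others. In batch 5 the oligodendrocyte markers of FC mice ran from 2660 to 17967 CPM and those of EXT mice from 2046 to 4337 CPM, and their part was not tested. These batch tests were chosen after seeing the data, and some cells of batch and group held 2 or 3 mice.

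The members were only weakly correlated with each other, though most pairs ranked high among all rows. After the mean of each cell of batch and group was subtracted, in the 39 mice of the 8 cells with at least 3 mice, Pearson's r was 0.36 between Crebbp and Crtc1, 0.34 between Crebbp and Atf4, 0.33 between Creb1 and Crebbp, 0.22 between Creb1 and Crtc1, 0.17 between Creb1 and Atf4 and -0.26 between Crtc1 and Atf4. Of all rows, 93.7% had a lower r with Creb1 than Crebbp did, 93.2% had a lower r with Crebbp than Crtc1 did, and 92.2% had a lower r with Crebbp than Atf4 did, with medians over rows near 0. All genes of a mouse share its library and dissection, so these values describe the samples. The rows most like Creb1 were Eea1 (r 0.70), an endosome tether, Ireb2 (0.69), an iron response regulator, and Ppp2r2b (0.67), a regulatory subunit of a protein phosphatase. Those most like Crebbp were Pura (0.78), D430019H16Rik (0.72) and Celf5 (0.71). Crtc1 ran with Phactr1 (0.87), Mkl2 (0.86) and Fbxo41 (0.84), of which the first binds actin and the next is a coactivator of serum response factor. Atf4 ran with Srp9 (0.83), a part of the signal recognition particle, and with B230217C12Rik (0.73) and Dnajc21 (0.72). The rows most opposed were Sil1 for Creb1 (-0.61), Slc25a29 for Crebbp (-0.58), Ginm1 for Crtc1 (-0.69) and Arfgap2 for Atf4 (-0.79). Among the relatives, r was 0.41 between Creb1 and Ep300 and 0.50 between Atf4 and Crem. Crh itself had r of -0.30 with Creb1, -0.24 with Crebbp, 0.06 with Crtc1 and -0.43 with Atf4.

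Close relatives of the members did not pass with batch as categories. Of the paralogs, Crem and Atf1 (relatives of Creb1) and Ep300 (the p300 gene, the relative of Crebbp) were among the rows, while Crtc2, Crtc3 and Atf5 were not. EXT vs. TA, with batch as categories, was -0.02 for Crem, 0.04 for Atf1 and -0.09 for Ep300 (limma adjusted p 0.787 or higher for each). Under the numeric coding Ep300 turned to 0.28 (limma adjusted p 0.282), and Crem and Atf1 did not pass. Of the 11 measured genes of the CREB and ATF family, 1 passed an unadjusted 0.05 (a limma p under 0.05 before adjustment) in EXT vs. TA. That was 9.09% of the list, against 21.1% of all rows. The gene was the ATF4 target and stress factor Ddit3 (0.30, limma adjusted p 0.165), and the median difference of the list was 0.07 against 0.01 over all rows. Ddit3 was also the only one of this list past that threshold in FC vs. TA (0.36, limma adjusted p 0.0928). Crebrf, a regulator of the stress response, was at 0.18 in EXT vs. TA. Among 10 coactivator genes, 1 had such a p, the CRTC-binding Nono (-0.33, limma adjusted p 0.197). The acetyltransferase gene Kat2b was at 0.28 and the nuclear receptor coactivator Ncoa1 at -0.12, neither with an unadjusted p under 0.05. The list median was -0.03. Only Ncoa1 (-0.22) of the coactivator genes passed an unadjusted 0.05 in FC vs. TA, where 16.8% of all rows did. In EXT vs. FC 0 genes of both lists did in limma, against 4.19% of all rows, with 0 FDR-significant. Under the numeric coding of batch, the EXT vs. TA values of Ddit3 (0.61, limma adjusted p 0.0151), Crebrf (0.61, limma adjusted p 0.0196) and Nono (-0.56, limma adjusted p 0.0149) passed the FDR threshold, and Ncoa1 turned to 0.09. They were, beside Crebbp, the only such genes of these 2 lists, under a coding in which 21.4% of rows passed.

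The genes that act on CREB and CRTC1 lay on both sides of TA after EXT. Of 11 genes of cAMP production and protein kinase A, 1 was higher and 2 lower past an unadjusted 0.05, with a median of -0.08. They were the adenylyl cyclase Adcy1 (0.41), the regulatory subunit Prkar1b (-0.38) and the catalytic subunit Prkacb (-0.26), and a further cyclase, Adcy5, was at 0.18 without such a p. Of 26 genes of the calcium and MAP kinase branches, 2 were higher and 4 lower, with a median of 0.03. Among these were Hras (0.29), the calmodulin gene Calm3 (0.22), the calmodulin-dependent kinase Camk2d (-0.51) and the ribosomal S6 kinase Rps6ka2 (-0.41). Of 19 inhibitors of the pathway, 2 were higher (the protein kinase A inhibitor Pkig, 0.37, and the phosphatase subunit Ppp1ca, 0.25) and 3 lower, among them the phosphodiesterases Pde1a (-0.28) and Pde8b (-0.20). Of the 4 calcineurin genes, whose product dephosphorylates CRTC1, Ppp3cb was higher at an unadjusted p under 0.05 (0.31), while Ppp3r1 (0.11) and Ppp3ca (-0.04) did not pass. With batch as categories 0 genes of these 4 lists were FDR-significant in limma, and the shares past an unadjusted 0.05 were 23.1% to 27.3%, near the 21.1% over all rows. With batch as a number, 1 gene of cAMP production and protein kinase A was FDR-significantly higher and 4 lower, among them Adcy1 (0.82), Prkar1b (-0.49) and Prkacb (-0.32), as were 2 and 4 of the calcium and MAP kinase genes, with Hras at 0.33 and Camk2d at -0.60. Of the inhibitors 2 were higher (Pkig, 0.75, and Ppp1ca, 0.34) and 0 lower. No calcineurin gene was FDR-significant, and Ppp3r1 turned to -0.12. These counts are of lists of 11, 26, 19 and 4 genes, under a coding in which 21.4% of all rows were FDR-significant. For FC vs. TA, with batch as categories, 0 protein kinase A genes were higher and 1 lower, 1 calcium and MAP kinase gene was higher and 6 lower, 0 inhibitors were higher and 1 lower, and 0 calcineurin genes passed that threshold, which is 9.09%, 26.9%, 5.26% and 0% of the lists against 16.8% of all rows. In EXT vs. FC only 2 inhibitors, both higher, did so in these 4 lists, where 4.19% of all rows did.

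Listed genes downstream of CREB lay mostly below TA after EXT. The list was chosen with earlier results of these data known, so its direction cannot be taken as independent of them. Of the 30 measured neuronal CREB targets, 23 were lower and 7 higher, where 3975 of all 8203 rows were lower. The list median was -0.20 against 0.01 over all rows. Past an unadjusted 0.05, 8 were lower and 0 higher (26.7% of the list, against 21.1% of rows), and 1 was FDR-significant. That gene was Fos, an immediate early gene, at 3.76 to 5.50 log2 CPM in TA mice (median 4.73), 3.67 to 5.14 in FC mice (median 4.67) and 3.52 to 5.39 in EXT mice (median 3.90), with an EXT vs. TA difference of -0.90 (standard error 0.17, limma adjusted p 0.033). The ranges overlapped. Among the others were the immediate early genes Arc (-0.64) and Junb (-0.53), named after their values were seen. Of the 6 targets whose promoters are printed above, Dusp1 (-0.48) and Syn1 (-0.45) had an unadjusted p under 0.05, and Scg2 (-0.35), Btg2 (-0.22), Cartpt (-0.16) and Sst (-0.13) did not. Under the numeric coding, Dusp1 (-0.48), Syn1 (-0.51), Scg2 (-0.68, limma adjusted p 0.035) and Sst (-0.70, limma adjusted p 0.0443) were FDR-significant, Cartpt was at -0.33 without passing, and Btg2 turned to 0.28. Fos stayed FDR-significant under that coding (-0.79, limma adjusted p 0.013). The largest positive values in the list with categories were those of Tac1 (0.23) and Gria1 (0.18), without such a p. Under the numeric one Tac1 turned to -0.05 and Gria1 was FDR-significant (0.43, limma adjusted p 0.0438). In all, under that coding, 15 targets were lower and 2 higher past an unadjusted 0.05 (56.7% of the list, against 37.8% of all rows). At the FDR threshold 12 targets were lower and 1 higher, under a coding in which 21.4% of all rows passed. In FC vs. TA, 22 of the 30 were lower, 3 of these and 1 higher gene past it (13.3% of the list, against 16.8% of rows), with a median of -0.12. In EXT vs. FC, 17 were lower, 3 of these past it (10% against 4.19%). The GABAergic and Crh neuron markers, some of which are also on the target list (Crh, Sst), had a median of -0.13 in EXT vs. TA with categories. Of the 15, 9 were lower, 2 of them past an unadjusted 0.05 (Gad1, -0.42, and Gad2, -0.24), and 6 were higher without passing, led by Drd2 (0.60) and Ppp1r1b (0.22). That share, 13.3%, was below the 21.1% of all rows. Under the numeric coding 11 of the 15 markers were lower, with a list median of -0.58. Past an unadjusted 0.05 were 8 lower and 1 higher marker, which is 60% of the list, against 37.8% of all rows. At the FDR threshold 5 markers were lower and 1 higher, where 21.4% of all rows passed. The part of these markers in the target counts was not tested. Only 6393 of the 8203 rows had a promoter window, which limits any comparison of genes with and without a CRE. In EXT vs. TA with categories, 139 of the 260 genes with a CRE were higher and 121 lower, with a median of 0.02. Past an unadjusted 0.05 were 23.5% of them, against 22.5% of genes with a short form only and 19.8% with neither. Under the numeric coding these shares were 47.7%, 39.7% and 36.3%. Differences between these sets were not tested.

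Listed genes downstream of ATF4 also lay mostly below TA after EXT, while Atf4 itself was at 0.14. This list too was chosen with earlier results of these data known. Of 33 measured ATF4 targets, 25 were lower, of which 13 passed an unadjusted 0.05, and 1 higher gene passed it (Ddit3), which together is 42.4% of the list, against 21.1% of all rows. The median was -0.16, against 0.01 over all rows, of which 3975 of 8203 were lower. Of these 13, 10 were aminoacyl-tRNA synthetase genes, which charge tRNAs with amino acids, a grouping made after the values were seen. All 12 measured synthetase genes of the list were lower, from -0.60 (Iars) to -0.16 (Eprs). Iars, the isoleucine tRNA synthetase, was FDR-significant in limma (standard error 0.11, adjusted p 0.033). With voom weights, or with log2 library size as a covariate, neither Iars nor Fos was FDR-significant. The numeric coding of batch put Iars at -0.19, where it did not pass (limma adjusted p 0.391). Iars was at 4.64 to 5.45 log2 CPM in TA mice (median 5.23), 4.13 to 5.67 in FC mice (median 4.92) and 3.87 to 6.03 in EXT mice (median 4.81), so the groups overlapped. Sesn2, a stress-induced inhibitor of mTORC1 signalling, was at -0.48 (limma adjusted p 0.133) with categories and -0.25 (limma unadjusted p 0.0564) with batch as a number. Counted with batch as a number, 11 ATF4 targets were lower and 3 higher past an unadjusted 0.05. That was 42.4% of the list, against 37.8% of all rows under that coding. At the FDR threshold 10 of the 33 targets were lower and 1 higher, where 21.4% of all rows passed. Of the 12 synthetase genes 11 were lower under that coding, 8 of them past an unadjusted 0.05. In FC vs. TA, 11 of the 12 synthetase genes were lower, of which 4 passed an unadjusted 0.05, in a comparison where 16.8% of rows did. Over the 33 ATF4 targets, 2 were higher and 4 lower past it in FC vs. TA (18.2% of the list), and 0 and 3 in EXT vs. FC (9.09%, against 4.19% of rows). Upstream of ATF4, among 12 measured genes of the eIF2alpha kinases, eIF2 and its phosphatases, 1 passed an unadjusted 0.05 in EXT vs. TA, the GCN2 inhibitor Impact (-0.35), and Ppp1r15a, which directs a phosphatase to eIF2alpha, was at 0.20. The eIF2B genes Eif2b1 (0.04) and Eif2b2 (-0.17) did not pass. Under the numeric coding 4 of the 12 genes were FDR-significant, all lower, among them Impact (-0.59) and Eif2b2 (-0.38), where 21.4% of all rows were. Past an unadjusted 0.05 were 5, all lower (41.7% of the list, against 37.8% of all rows), and Eif2b1 turned to -0.06. With batch as categories, 2 of these 12 genes were lower in FC vs. TA past an unadjusted 0.05 (16.7%, against 16.8% of all rows), and in EXT vs. FC 0 were.

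**Figure D4:**
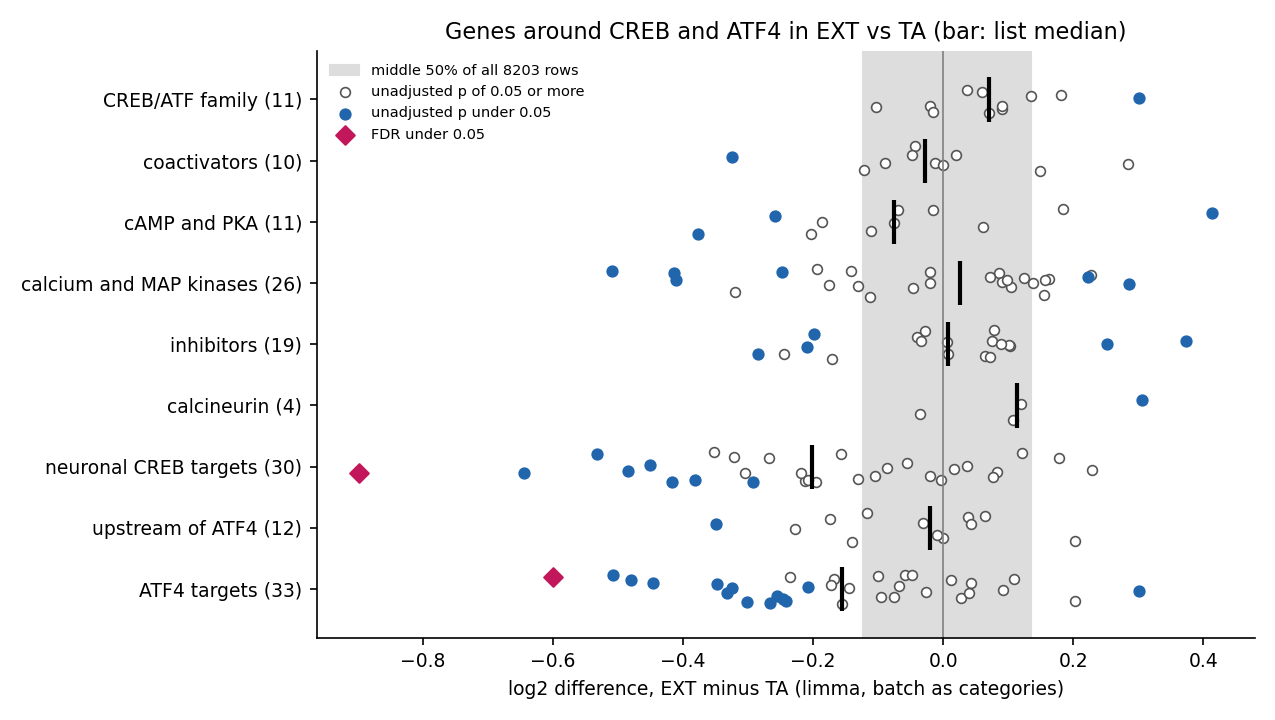
Each point is a measured gene, plotted by its EXT minus TA log2 difference with batch as categories (horizontal axis) in the list named at the left, with its number of genes. Filled points had an unadjusted p under 0.05, diamonds were FDR-significant (Fos and Iars), bars are list medians, and the grey band holds the middle 50% of all rows (-0.12 to 0.13). The medians of the neuronal CREB targets (-0.20) and of the ATF4 targets (-0.16) are the lowest of the 9 lists.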

How the data were processed

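Adapter trimming was with Trimmomatic 0.36 and alignment with STAR against GRCm38, per the labels. According to the study's methods, lowly expressed genes and outlying samples had been removed. The deposited values are log2 CPM as voom writes them, and all columns, which are headed by bare animal numbers, hold such log2 values. Strand and counting tool are not given in the sources used here. An offset of 0.5 reads was solved out to recover whole reads (tolerance 0.05).

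Group, sex and batch came from the labels. Pairs of groups were compared on the deposited values of all 8203 rows with lmFit and eBayes of limma 3.58.1 (R 4.3.3), two-sided, with Benjamini-Hochberg adjustment, an FDR threshold of 0.05, batch as categories and sex as a factor. The study controlled for batch and sex without naming the coding of batch, and the numeric coding was the main alternative. The 4 genes, the gene lists and the tests were chosen with earlier results of these data known. The 4 genes are given in full. From each list the text names, for either direction of EXT vs. TA, the 2 genes with the smallest p, and beside them paralogs, CRE-bearing targets and any gene said to be named after its values were seen. Positions came from GENCODE M21, promoters from RefSeq (GRCm38.p6). The fits were tested on simulated data. Each mouse is a replicate. Python 3.11.15, pandas 2.3.3 and matplotlib 3.10.9 were also used.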

Additional observations from a re-analysis of the deposited data

Results flagged for a closer look

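Values of the 4 genes were screened for single mice far from the rest of their group and sex. In 24 such sets of 6 or 10 mice (4 genes, 3 groups, 2 sexes), 2 values stood apart by Dixon's criterion, which chance alone meets in about 1 in 20 groups. Creb1 in the FC male mouse 49 was at 4.28, below the other 5 FC males. That mouse was the only FC male of batch 1, the batch with the lowest Creb1. Atf4 in the FC male mouse 47 was at 7.58, above the other 5 FC males and the highest Atf4 of all 44 mice. The same mouse had the lowest Crtc1 of all mice (5.99), and its oligodendrocyte markers summed to 4772 CPM and its GABAergic and Crh neuron markers to 4376 CPM.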

How the results depend on the processing

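With batch entered as a number, EXT vs. TA gave 1755 FDR-significant genes, 0.14 for Creb1 (turned in sign) and 0.39 for Crebbp (now past the threshold), and EXT vs. FC gave 0.27 for Creb1 and 0.16 for Atf4, both turned. With no batch term these were 1614, 0.14, 0.39, 0.30 and 0.17. The count of 2 genes in EXT vs. TA became 409 without batches 3 and 4, 1 with all 3 groups fitted together, 1 at a minimum mean log2 value of 5, 0 with voom weights (1750 at an unadjusted p under 0.05, against 1733), 0 with log2 library size in the limma fit (384 at that p) and 11 with a choroid plexus score. Leaving out 1 mouse gave 0 to 472 genes, with 472 without EXT mouse 23 of batch 3, 6 without EXT mouse 58, and 0 or 1 for 19 of the 32 mice. In FC vs. TA the minimum mean of 5 gave 3 genes, and leaving out 1 mouse gave 0 to 3, with values above 0 without FC mice 18, 19 and 43. In EXT vs. FC array weights gave 4 genes, and turned Atf4 to 0.071, and library size turned Crebbp to -0.0093. In alternatives chosen after seeing the data, EXT vs. FC without batches 3 and 4 turned for Creb1 to 0.041 with numeric batch and 0.078 with no batch term, and for Atf4 to 0.020 with no batch term. Leaving out 1 mouse, the values that changed sign ran from -0.019 to 0.073 for Crtc1 in EXT vs. TA, and in EXT vs. FC from -0.15 to 0.00046 for Creb1 (turned without EXT mouse 51), from -0.0057 to 0.12 for Crebbp (EXT mouse 21) and from -0.094 to 0.059 for Atf4 (FC mouse 13 or 47). Without a change of sign, Creb1 in EXT vs. TA ran from -0.15 to -0.042 (nearest 0 without EXT mouse 51), Crebbp in EXT vs. TA from 0.077 to 0.20 (lowest without EXT mouse 26) and Creb1 in FC vs. TA from -0.10 to -0.029 (nearest 0 without FC mouse 18), none of them past the threshold. The cause was not tested. The FC vs. TA direction of all 4 genes held in each alternative run. Creb1 and Crebbp fall below the minimum mean of 5 and have no value there. No paired analysis was possible because replicate numbers were given in accession order and mark no shared animal.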
